A study of Mus musculus with 5 samples.

Results

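Serum amyloid A and related acute-phase secreted proteins are followed here through 8 genes chosen by symbol, Saa1, Saa2, Saa3, Lcn2, Orm1, Hp, Ptx3 and Lbp, of the 23183 symbols counted. All 8 were listed in every file. RNA of the whole lung was sequenced from 5 groups of BALB/c mice, all female and wild type, each group giving 1 library. The groups were mice given particulate matter (PM10), ovalbumin (OVA, an egg protein used as allergen) and a chitinase-1 inhibitor (PM10/OVA/CPX), mice given PM10, ovalbumin and the synthetic glucocorticoid dexamethasone (PM10/OVA/Dex), mice given PM10 and ovalbumin (PM10/OVA), mice given PM10 alone (PM10), and a control group whose treatment is labelled as none. PM10 was thus common to 4 groups and ovalbumin to 3, and both treated groups differ from PM10/OVA by 1 added agent each. Mice received PM10 through the nose on 4 occasions within 2 weeks, and ovalbumin first by injection into the abdomen and later through the nose. Injections of the inhibitor numbered 6 across 3 weeks, those of dexamethasone 3 during the final week, and the last challenge preceded sampling by 2 days. Age, dose and the number of animals behind each library were not stated in the sources used here.

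Acute-phase proteins are secreted proteins whose output changes within hours of infection or injury. In the liver they are driven by IL-6, IL-1 and TNF acting through STAT3, C/EBP and NF-kB transcription factors, and several of them are also made locally in the lung by epithelium, macrophages, neutrophils and stromal cells. Saa1 and Saa2 encode the serum amyloid A proteins that the liver releases onto high-density lipoprotein, while mouse Saa3 is made mostly outside the liver. Lcn2 (lipocalin 2) binds the siderophores with which bacteria take up iron. Hp (haptoglobin) binds free haemoglobin, Orm1 (alpha-1-acid glycoprotein) carries lipids and drugs in plasma, Ptx3 is a long pentraxin that marks microbes for complement and phagocytes, and Lbp hands bacterial lipopolysaccharide to CD14.

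The 3 serum amyloid A genes lie together on chromosome 7 (GRCm38). Saa3 is at 46711998 to 46715700 on the minus strand, Saa1 at 46740497 to 46742980 on the minus strand and Saa2 at 46751790 to 46754313 on the plus strand, each protein-coding. Lcn2 (chromosome 2, 32384633 to 32388252, minus), Lbp (chromosome 2, 158306493 to 158332852, plus), Orm1 (chromosome 4, 63344560 to 63348163, plus), Hp (chromosome 8, 109575128 to 109579172, minus) and Ptx3 (chromosome 3, 66219910 to 66225805, plus) lie elsewhere. In the GENCODE basic annotation no exon of another gene overlapped an exon of any of the 8, although Ptx3 lies inside the span of Veph1 on the opposite strand. The principal transcripts of Saa1 and Saa2 were identical at 94.4% of 606 aligned bases, but 9.11% of the 50-base windows of Saa1 also occurred in Saa2. Saa1 and Saa3 were identical at 69.6% of aligned bases and shared 1.61% of the windows of Saa1, and Saa2 shared no window with Saa3. How the authors' counting treated shared reads is not stated, so the split between Saa1 and Saa2 is uncertain. Orm1 was 91.0% identical to Orm2 and shared 20.4% of its windows with it.

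The upstream sequences of Saa3 and Saa1 are shown because these genes had some of the highest ratios to control in the set, and that of Saa2 because it is the close copy of Saa1. They come from the RefSeq promoter windows (GRCm38.p6), which held 5 of the 8 genes (not Orm1, Hp or Lbp), and each run ends at the base before the annotated gene. The Lcn2 window is not printed, since another annotated transcript of the gene begins upstream of it and it lies inside the span given above. Capitals mark matches to the C/EBP pattern TTNNGNAA on either strand.
Saa3, chr7:46715701-46715926, minus strand: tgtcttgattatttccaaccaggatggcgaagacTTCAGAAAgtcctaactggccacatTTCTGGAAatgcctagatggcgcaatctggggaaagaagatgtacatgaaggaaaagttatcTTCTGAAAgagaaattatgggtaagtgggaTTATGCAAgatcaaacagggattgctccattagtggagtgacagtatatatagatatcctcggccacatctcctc
Saa1, chr7:46742981-46743230, minus strand: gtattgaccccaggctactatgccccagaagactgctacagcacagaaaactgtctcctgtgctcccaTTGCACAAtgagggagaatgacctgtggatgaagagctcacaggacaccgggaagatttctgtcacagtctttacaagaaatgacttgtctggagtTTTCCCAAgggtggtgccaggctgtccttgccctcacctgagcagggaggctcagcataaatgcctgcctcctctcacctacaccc
Saa2, chr7:46751583-46751789, plus strand: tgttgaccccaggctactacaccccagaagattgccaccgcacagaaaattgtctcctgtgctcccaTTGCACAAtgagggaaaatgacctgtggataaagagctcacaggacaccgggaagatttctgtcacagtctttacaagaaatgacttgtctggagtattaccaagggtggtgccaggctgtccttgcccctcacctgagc

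Matches to TTNNGNAA numbered 4 in the Saa3 window, 2 in the Saa1 window and 1 each in the Saa2 and Lcn2 windows. A match of this short pattern was present in 40.7% of the 32851 promoter windows of 300 bases. Saa1 and Saa2 carried the same match, TTGCACAA. None of the 4 windows matched the NF-kB consensus (4.51% of all windows), the STAT pattern TTCNNNGAA (8.30%), the glucocorticoid response element (0.472%) or TATAAA (13.6%). The Ptx3 window matched the NF-kB consensus at 2 overlapping places next to the transcript start and TTNNGNAA once. A match is a run of letters, and no binding was measured.

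Library totals ran from 11993222 to 16929068 counts. Levels are given as CPM, the counts of a gene relative to its library's total, scaled by edgeR's TMM factors (trimmed mean of M-values), which ran from 0.989 to 1.02, and 1 count was worth 0.0577 to 0.0841 CPM. With 1 library per group there is no replicate and no test, so every difference is between 2 libraries, and the 95% intervals given cover counting error only. The 8 lung markers (Sftpc, Sftpb, Sftpa1, Ager, Scgb1a1, Foxj1, Cldn5 and Pecam1) had counts in all 5 libraries and summed to between 36623 and 48971 CPM. Markers of liver cells were near 0: the 12 hepatocyte markers summed to 1.52 CPM in PM10/OVA/CPX, 2.35 in PM10/OVA/Dex, 1.70 in PM10/OVA, 0.911 in PM10 and 5.82 in control, and Apoc3 was at 0 in every library. Fat and heart-muscle markers had their highest sums in control. The 12 adipocyte markers summed to 58.5 CPM in PM10/OVA/CPX, 219 in PM10/OVA/Dex, 66.4 in PM10/OVA, 103 in PM10 and 705 in control, and fat cells are known to make Saa3, Lcn2, Hp and Orm1. Among them Acvr1c was at 0 in PM10/OVA/CPX and PM10/OVA, and Lep in PM10/OVA/CPX. Of the 11 measured adipocyte markers, 11 were at least 2-fold lower in PM10 and in PM10/OVA than in control. Over all measured genes 2.04% and 2.73% were lower. A marker near 0 in exposed libraries, as Acvr1c or Lep, could reach the minimum mainly through control. Such a marker could then hardly pass without differing from control. In PM10/OVA/Dex 7 of the 11 were at least 2-fold higher than in PM10/OVA, beside 1.2% of measured genes. The part of fat cells in the levels of the 8 genes was not tested.

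Saa3 spanned the widest range of the 8 genes. It had 839 counts in PM10/OVA/CPX, 531 in PM10/OVA/Dex, 10995 in PM10/OVA, 5592 in PM10 and 38 in control. On the CPM scale these were 67.0 (interval 62.5 to 71.7), 44.7 (40.9 to 48.6), 694 (681 to 707), 463 (451 to 476) and 2.19 (1.55 to 3.01) in that order of libraries. The 2 exposed libraries without treatment stood far above the 2 treated ones, which in turn stood far above control, and no 2 of the 5 intervals overlapped. By CPM it ranked 3424 in PM10/OVA/CPX, 5002 in PM10/OVA/Dex, 136 in PM10/OVA, 263 in PM10 and 13339 in control among all symbols. In bulk lung, fewer cells of a type and less RNA per cell cannot be told apart, for this gene and for those that follow.

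Lcn2 was the most abundant of the 8 genes by CPM in PM10/OVA/CPX, PM10/OVA and PM10. Its counts were 8966 in PM10/OVA/CPX, 5490 in PM10/OVA/Dex, 22042 in PM10/OVA, 11832 in PM10 and 1189 in control, which gave 716, 462, 1390, 980 and 68.6 CPM in the same order. The order of the libraries was that of Saa3, PM10/OVA, PM10, PM10/OVA/CPX, PM10/OVA/Dex and control from high to low, and each step was larger than its counting interval. The ratios were smaller: PM10/OVA stood 20.3-fold above control for Lcn2 (interval 19.1 to 21.5), and 317-fold for Saa3 (230 to 448).

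Saa1 was scarce. It had 12 counts in PM10/OVA/CPX, 21 in PM10/OVA/Dex, 89 in PM10/OVA, 23 in PM10 and 1 in control, at 0.958, 1.77, 5.61, 1.91 and 0.0577 CPM. PM10/OVA was highest, and PM10/OVA/Dex and PM10 did not differ beyond counting error (0.927-fold, interval 0.488 to 1.75). Saa2 had 3 counts in PM10/OVA/CPX, 1 in PM10/OVA/Dex, 14 in PM10/OVA, 4 in PM10 and 0 in control, so its folds are barely measurable at this depth. In control the floor of 3 counts is 0.173 CPM, and the exact upper limit for 0 counts is 0.213 CPM. Saa4, a serum amyloid A gene of the same cluster that is not among the 8, had 18 counts in PM10/OVA/CPX, 3 in PM10/OVA/Dex, 31 in PM10/OVA, 19 in PM10 and 0 in control.

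Orm1 was highest in PM10/OVA and low elsewhere. It had 79 counts in PM10/OVA/CPX, 40 in PM10/OVA/Dex, 326 in PM10/OVA, 92 in PM10 and 78 in control, at 6.31, 3.36, 20.6, 7.62 and 4.50 CPM. PM10/OVA/CPX did not differ from PM10 beyond counting error (0.828-fold, interval 0.605 to 1.13), and PM10/OVA/Dex did not differ from control (0.748-fold, 0.498 to 1.11). The close paralog Orm2 had 14, 9, 117, 45 and 1 counts in the same order of libraries, with PM10/OVA again highest. Reads that fit both genes could move between them.

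Hp was abundant in every library, control included. It had 5796 counts in PM10/OVA/CPX, 9481 in PM10/OVA/Dex, 15517 in PM10/OVA, 7794 in PM10 and 10511 in control, at 463, 797, 979, 646 and 606 CPM. Unlike the genes above, its lowest library was PM10/OVA/CPX, which was 0.764-fold of control (interval 0.739 to 0.789), and its second highest was PM10/OVA/Dex. Lbp kept to a narrow range of 73.1 CPM in PM10/OVA/CPX, 76.1 in PM10/OVA/Dex, 105 in PM10/OVA, 101 in PM10 and 66.3 in control. The 2 treated libraries did not differ beyond counting error for Lbp (PM10/OVA/CPX over PM10/OVA/Dex 0.960-fold, 0.875 to 1.05), nor did PM10/OVA over PM10 (1.04-fold, 0.965 to 1.12). Ptx3 had 29 counts in PM10/OVA/CPX, 16 in PM10/OVA/Dex, 29 in PM10/OVA, 16 in PM10 and 12 in control, at 2.32, 1.35, 1.83, 1.33 and 0.692 CPM. It was the single gene of the 8 with its highest CPM in PM10/OVA/CPX, though the interval of its ratio to PM10/OVA, 0.730 to 2.19, covers 1.

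**Figure D1:**
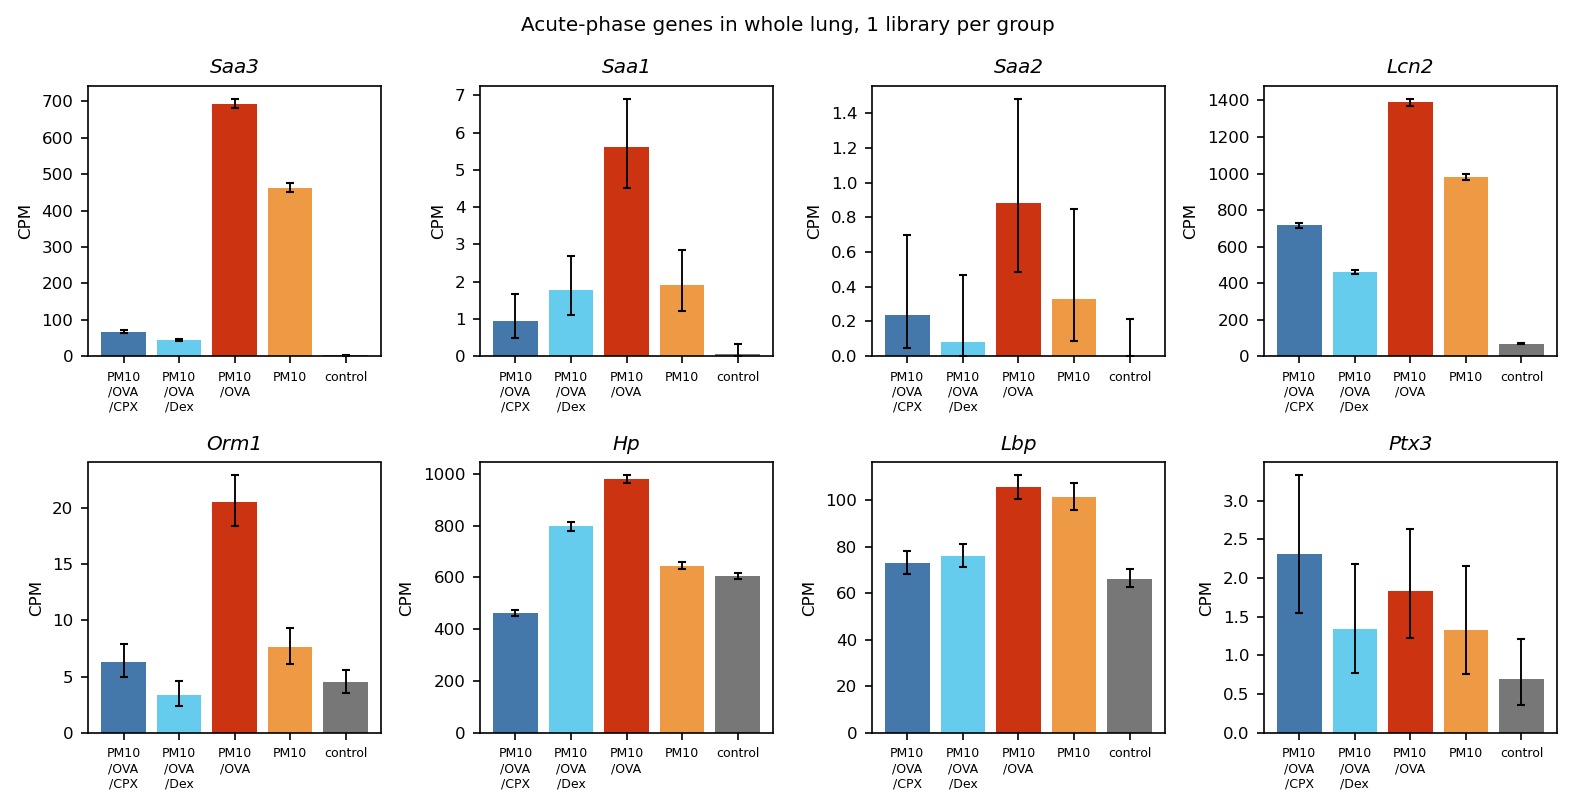
Level of each of the 8 genes in CPM (vertical axis, from 0, a scale of its own per gene) in the 5 libraries. Bars are single libraries and error bars are 95% counting intervals. Saa3, Saa1, Saa2, Lcn2, Orm1, Hp and Lbp are highest in PM10/OVA, and Ptx3 is highest in PM10/OVA/CPX at 2.32 CPM.

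Per length of principal transcript, which lets genes be set beside each other, the 8 genes summed to 1287 CPM per kb in PM10/OVA/CPX, 1216 in PM10/OVA/Dex, 3577 in PM10/OVA, 2440 in PM10 and 562 in control. Hp made up 26.7% of the sum in PM10/OVA/CPX, 48.7% in PM10/OVA/Dex, 20.3% in PM10/OVA, 19.7% in PM10 and 80.2% in control. Saa3 made up 9.38%, 6.62%, 34.9%, 34.2% and 0.702%, and Lcn2 60.8%, 41.5%, 42.5%, 43.9% and 13.3% in the same order of libraries. Haptoglobin was thus the main transcript of the set in control, and Lcn2 with Saa3 held most of it in PM10/OVA and PM10. In the treated libraries the sum was nearly equal but its makeup differed: Lcn2 was the largest share with the inhibitor, and Hp the largest with dexamethasone. Saa1, Saa2, Orm1 and Ptx3 together stayed a small part in each library.

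**Figure D2:**
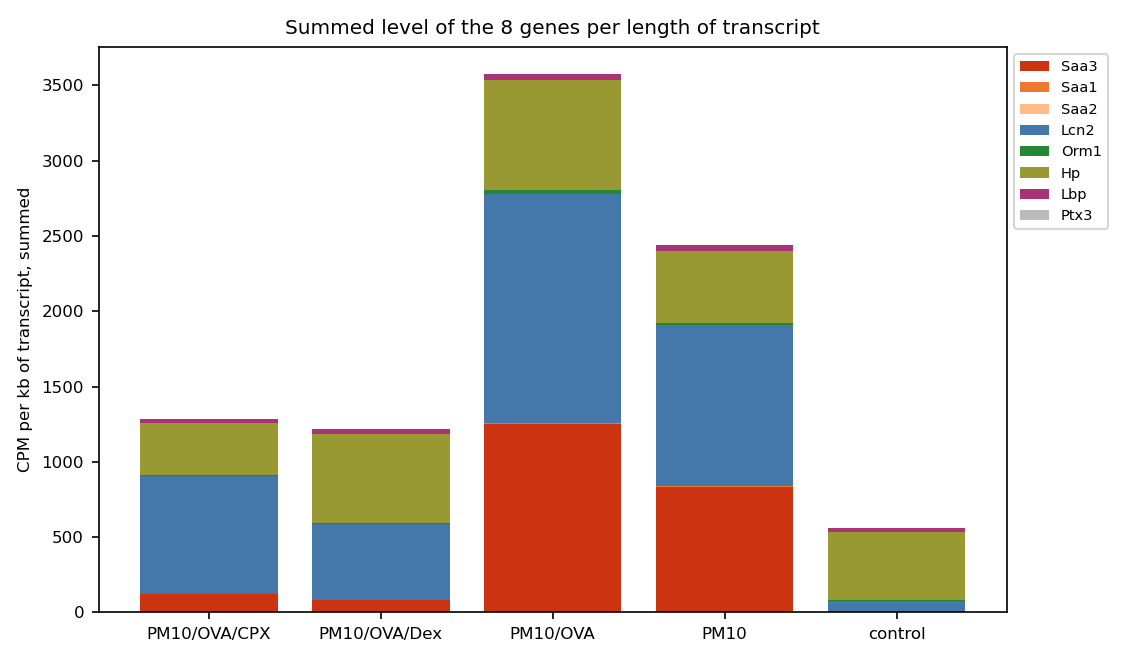
Summed level of the 8 genes in CPM per kb of principal transcript (vertical axis) in the 5 libraries, with a colour per gene. The sum is highest in PM10/OVA at 3577 and lowest in control at 562, where Hp makes up 80.2% of it.

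Exposure to particles without allergen was compared as PM10 against control. Saa3 was 211-fold higher in PM10 (interval 154 to 299), the highest log2 ratio of the 14305 genes measured at a mean of at least 1 CPM, and Lcn2 ranked 7 with 14.3-fold (13.5 to 15.2). Saa1 had 23 counts against 1, a ratio of 33.0 with a very wide interval (5.37 to 1361). Orm1 was 1.69-fold higher (1.24 to 2.32) and Lbp 1.53-fold (1.41 to 1.66), while Hp was 1.07-fold (1.03 to 1.10) and Ptx3 1.92-fold with an interval that covers 1 (0.850 to 4.44). Counted on log2(CPM + 1), where low genes have smaller ratios, 3 of the 7 measured members were at least 2-fold higher in PM10 and 0 at least 2-fold lower, beside 3.7% of all measured genes higher and 2.04% lower. Saa2 was under the minimum. Saa1 passed the minimum only through the exposed libraries, so it could hardly pass without differing. The median log2 ratio was 0.65 over the 7 members and -0.0012 over all measured genes.

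The step from particles alone to particles with allergen is PM10/OVA against PM10. Orm1 was 2.70-fold higher in PM10/OVA (2.13 to 3.44) and Saa1 2.95-fold (1.85 to 4.89). Saa3 was 1.50-fold higher (1.45 to 1.55), Hp 1.52-fold (1.48 to 1.56) and Lcn2 1.42-fold (1.39 to 1.45). Ptx3 (1.38-fold, 0.725 to 2.72) and Lbp did not differ beyond counting error. Of the 7 measured members 2 were at least 2-fold higher and 0 lower, beside 0.692% of measured genes higher and 1.27% lower. The count was 1, with Saa1 no longer past 2-fold or no longer measured, with a pseudocount of 5 CPM, with a minimum mean of 5 CPM or with the trend over transcript length removed. Genes with short exon length had higher ratios in this comparison (Spearman's rho -0.34 across 13781 genes, and genes are no independent replicates), and Saa1, Saa2, Orm1 and Lcn2 are short, with 0.846% of measured genes shorter than Saa1 and 3.29% shorter than Lcn2, the longest of the 4. With that trend removed the log2 ratio of Lcn2 was 0.26, against 0.50 before. Saa3 entered the trend by its exon union of 2606 bases, although its principal transcript has 555. Its log2 ratio was 0.55 with the trend removed, against 0.58 before, which may correct too little if the shorter length applies.

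PM10/OVA against control covers both exposures. Saa3 again had the highest log2 ratio of all measured genes, 7.77, and Lcn2 ranked 13. Saa1 had 89 counts against 1 (ratio 97.4, interval 17.0 to 3889), Saa2 14 against 0 (at least 5.11-fold against a floor of 3 counts, exact lower limit 3.63) and Orm1 was 4.57-fold higher (3.56 to 5.93). The other 3 were less than 2-fold higher on log2(CPM + 1): Ptx3 had a CPM ratio of 2.64 (1.31 to 5.69), Hp of 1.62 (1.58 to 1.66) and Lbp of 1.59 (1.47 to 1.72). In all, 4 of 7 measured members were at least 2-fold higher and 0 lower, where 3.17% of measured genes were higher and 2.73% lower. Saa1 is among the 4, and having passed the minimum only through the exposed libraries it could hardly pass without differing. The median log2 ratio was 1.97 over the members and 0.01 over all measured genes. Without the length trend, taken over exon unions, Saa3 was at 7.71, Lcn2 at 4.11, Orm1 at 1.75 and Hp at 0.48 on the log2 scale.

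**Figure D3:**
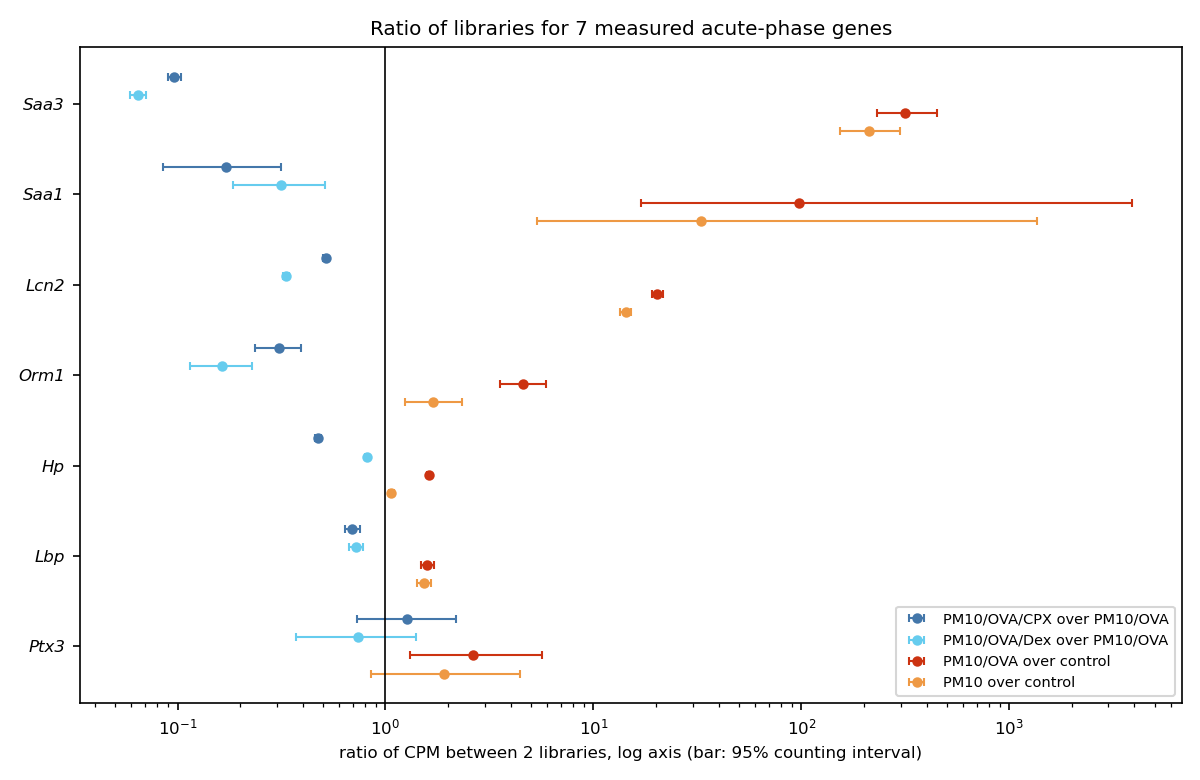
Ratio of CPM between 2 libraries (horizontal axis, log scale, with 95% counting intervals) for the 7 genes measured at a mean of at least 1 CPM, in 4 comparisons that share libraries. Saa3 lies farthest from 1 in all 4, at 317 for PM10/OVA over control, and the intervals of Ptx3 cover 1 in 3 of the 4.

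The next comparison is PM10/OVA/CPX against PM10/OVA, libraries that differ by the added inhibitor. Saa3 was 10.4-fold lower with the inhibitor (interval 9.65 to 11.1), the fourth lowest log2 ratio of all measured genes. Saa1 was 5.86-fold lower (3.19 to 11.8), Orm1 3.26-fold (2.54 to 4.22), Hp 2.12-fold (2.05 to 2.18), Lcn2 1.94-fold (1.89 to 1.99) and Lbp 1.44-fold (1.33 to 1.57), and Saa2 had 3 counts against 14. Of the 7 measured members 4 were at least 2-fold lower and 0 higher, beside 0.762% of measured genes lower and 0.636% higher. Hp, with a log2 ratio of -1.08, lay just past this threshold and Lcn2, with -0.96, just short of it. With the length trend removed Lcn2 passed it too, at -1.05. The median was -1.08 over the members and -0.0043 over all measured genes.

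For dexamethasone the same comparison was made, PM10/OVA/Dex against PM10/OVA. Saa3 was 15.5-fold lower with dexamethasone (14.2 to 17.0), the third lowest log2 ratio, Orm1 6.11-fold (4.39 to 8.72), Saa1 3.18-fold (1.96 to 5.39) and Lcn2 3.01-fold lower (2.92 to 3.10). Lbp was 1.39-fold lower (1.28 to 1.50), Hp 1.23-fold (1.20 to 1.26), and Ptx3 did not differ beyond counting error (1.36-fold lower, 0.714 to 2.68). Here 4 of 7 members were at least 2-fold lower and 0 higher, beside 1.6% of measured genes lower and 1.2% higher, and the median was -1.26 against -0.01 over all measured genes. Both treated libraries are set against the same PM10/OVA library, so its own deviation enters both comparisons.

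Set against each other directly, the 2 treated libraries differed by less than 2-fold in each of the 7 measured members, beside 0.734% of measured genes higher and 1.06% lower in PM10/OVA/CPX. Saa3 (1.50-fold, 1.34 to 1.68), Lcn2 (1.55-fold, 1.50 to 1.60) and Orm1 (1.88-fold, 1.27 to 2.82) were higher in PM10/OVA/CPX than in PM10/OVA/Dex. Hp was lower, at 0.580-fold (0.562 to 0.600). Saa1 (0.543-fold, 0.243 to 1.15) and Ptx3 (1.72-fold, 0.904 to 3.39) did not differ beyond counting error.

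Measured from control, Saa3 stayed 30.6-fold higher with the inhibitor (22.1 to 43.5) and 20.4-fold higher with dexamethasone (14.7 to 29.1), and Lcn2 10.4-fold (9.83 to 11.1) and 6.73-fold higher (6.32 to 7.18). As a share of its PM10/OVA level, Saa3 stood at 9.66% with the inhibitor and 6.44% with dexamethasone, whereas Lcn2 stood at 51.5% and 33.2%. Both treated libraries also stood below PM10 alone for Saa3, by 6.91-fold with the inhibitor (6.43 to 7.44) and 10.4-fold with dexamethasone (9.49 to 11.4). For Lcn2 these were 1.37-fold (1.33 to 1.41) and 2.12-fold lower (2.06 to 2.19).

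Markers of cells that make these proteins differed between the same libraries. The neutrophil list had 15 of its 16 markers in the files, summing to 663 CPM in PM10/OVA/CPX, 636 in PM10/OVA/Dex, 786 in PM10/OVA, 333 in PM10 and 606 in control, with the immature-stage gene Elane at 0 in all 5 and Mpo at 0 in PM10/OVA and control. The sum is swayed by Ltf, a granule gene that airway glands also express, at 79.0, 305, 88.9, 92.9 and 410 CPM in that order. Of the 12 measured neutrophil markers, 2 were at least 2-fold higher and 1 lower in PM10 than in control (median log2 ratio 0.31). Over all measured genes 3.7% were higher and 2.04% lower. In PM10/OVA 9 were higher and 1 lower than in control (1.73), beside 3.17% and 2.73% of measured genes. Against PM10, 8 were higher and 0 lower in PM10/OVA (1.13), beside 0.692% and 1.27%. Against PM10/OVA, 0 were higher and 2 lower with the inhibitor (-0.40), beside 0.636% and 0.762%. With dexamethasone 1 was higher and 6 lower (-0.93), beside 1.2% and 1.6%. Monocyte and interstitial macrophage markers, all 10 with counts, summed to 603 CPM in PM10/OVA/CPX, 514 in PM10/OVA/Dex, 646 in PM10/OVA, 826 in PM10 and 226 in control. Of these 10, 10 were at least 2-fold higher in PM10 than in control (1.92), beside 3.7% of measured genes. In PM10/OVA 8 were higher than in control (1.54), beside 3.17%, and 0 were lower in both. Against PM10/OVA 0 were lower with the inhibitor and 3 with dexamethasone, beside 0.762% and 1.6%. Alveolar macrophage markers summed to 1145, 995, 1020, 983 and 737 CPM in the same order (9 of 10 in the files). Of the 9, 4 were at least 2-fold higher and 1 lower in PM10 than in control (0.72), beside 3.7% and 2.04% of measured genes. In PM10/OVA 4 were also higher and 1 lower than in control (0.91), beside 3.17% and 2.73%. Alveolar type 2 cell markers (9 of 9, 21055 to 25531 CPM), club cell markers (8 of 8, 16379 to 29007 CPM), mesothelial markers (7 of 8, 293 to 485 CPM), fibroblast markers (8 of 8, 2054 to 3102 CPM) and heart-muscle markers (10 of 10, 267 to 3443 CPM) had counts throughout. By sum, mesothelial markers were lowest in PM10/OVA/CPX, and club cell markers lowest in PM10. Of the 8 club cell markers, 3 were at least 2-fold lower and 0 higher in PM10 than in control (median -0.70), beside 2.04% and 3.7%. Of the 7 measured mesothelial markers, 4 were at least 2-fold lower and 0 higher in PM10/OVA/CPX than in PM10/OVA (median -1.01). Over all measured genes 0.762% were lower and 0.636% higher in that comparison. The part of any of these cells in the levels of the 8 genes was not tested.

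Among 26 other acute-phase secreted proteins, 18 were measured, and 11 of them were at least 2-fold higher and 1 lower in PM10/OVA than in control (median log2 ratio 1.52), beside 3.17% of all measured genes higher and 2.73% lower. Of the 18, Orm2 and Saa4 passed the minimum through the exposed libraries, where they are high, and could hardly pass without differing. The protease inhibitor Serpina3n was at 86.6 CPM in PM10/OVA/CPX, 105 in PM10/OVA/Dex, 311 in PM10/OVA, 123 in PM10 and 17.6 in control. Hpx, hemopexin, which binds free haem, had 19, 12, 226, 38 and 10 counts in the same order. Serpina3n was 17.6-fold (15.7 to 19.9) and Hpx 24.7-fold higher (13.2 to 52.3) in PM10/OVA than in control, Orm2 had 117 counts against 1 (ratio 128, interval 22.5 to 5099), and Hamp, the iron hormone hepcidin, was 12.3-fold lower (8.10 to 19.4). Hepcidin is also made by heart muscle, whose markers summed to 302 CPM in PM10/OVA and 3443 in control, and their part in the level of Hamp was not tested. Some liver acute-phase genes were near 0: Apcs had 0 counts in all 5 libraries, Crp at most 1 and Fgb at most 1. Others, such as Hp, Lbp and Serpina3n, were well above 0 in every library.

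With the inhibitor, 4 of these 18 genes were at least 2-fold lower than in PM10/OVA and 0 higher (median -0.44), beside 0.762% of measured genes lower and 0.636% higher. Hpx was 9.40-fold (5.88 to 15.9), Orm2 6.60-fold (3.78 to 12.4), Serpina3n 3.59-fold (3.36 to 3.84) and Cd14, the lipopolysaccharide co-receptor that takes its ligand from Lbp, 2.04-fold lower (1.89 to 2.20). With dexamethasone 7 were lower and 1, Hamp, higher than in PM10/OVA (median -0.78), beside 1.6% lower and 1.2% higher over measured genes. Of the 10 heart-muscle markers, 6 were also at least 2-fold higher and 0 lower in this comparison (median 1.12). Their part in the level of Hamp was not tested. Among the 7 is Saa4, with 3 counts against 31. It reached the minimum only through PM10/OVA, where it is highest, so its call is partly set by the filter. Hpx was 14.1-fold (7.93 to 27.8), Orm2 9.75-fold (4.96 to 21.9), Serpina3n 2.95-fold (2.78 to 3.15) and Cd14 2.87-fold lower (2.62 to 3.14). Serpina3n was the only one of the 4 lower in PM10/OVA/CPX than in PM10/OVA/Dex by CPM. For Orm2 that difference lay within counting error (1.48-fold, 0.595 to 3.87), and Hpx had only 19 counts against 12.

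Of the cytokines that drive the acute phase and their receptors, 14 of 17 were measured and 5 were at least 2-fold higher in PM10/OVA than in control and 0 lower (median 0.50), beside 3.17% and 2.73% of measured genes. Il6 passed the minimum only through PM10/OVA, so it could hardly pass without differing there. The same holds for its calls in both treated libraries against PM10/OVA, counted below. Il1b, the gene of interleukin-1 beta, was at 45.4 CPM in PM10/OVA/CPX, 30.6 in PM10/OVA/Dex, 133 in PM10/OVA, 54.4 in PM10 and 16.5 in control. Il6 had 5, 5, 58, 10 and 2 counts, Tnf 24, 12, 112, 52 and 6, and Osm, an interleukin-6 family cytokine, 44, 11, 115, 26 and 14, in the same order. All 4 were highest in PM10/OVA. They are the 4 of the 14 with the largest absolute log2 ratio of PM10/OVA over control, so this is partly set by how they were named. Il1b was 8.04-fold higher in PM10/OVA than in control (7.10 to 9.12), and Il6, on 58 counts against 2, had a ratio of 31.7 (8.40 to 268). In PM10/OVA/CPX 3 of the 14 were at least 2-fold lower than in PM10/OVA and 0 higher (median -0.56), beside 0.762% and 0.636% of measured genes, with Il6 9.16-fold (3.71 to 29.3), Tnf 3.69-fold (2.36 to 5.99) and Il1b 2.93-fold lower (2.67 to 3.22). In PM10/OVA/Dex 5 were lower and 0 higher (median -0.34), beside 1.6% and 1.2% of measured genes, with Il6 8.70-fold (3.52 to 27.8), Osm 7.84-fold (4.22 to 16.1), Tnf 7.0-fold (3.85 to 14.0) and Il1b 4.34-fold lower (3.89 to 4.87). The fifth gene past 2-fold in both PM10/OVA over control and PM10/OVA/Dex over PM10/OVA was Il1a. Il6st, the signalling chain shared by interleukin-6 family receptors, stayed between 363 and 461 CPM.

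Among the transcription factors and feedback regulators, 10 of 11 listed genes were measured. Of these, 3 were at least 2-fold higher in PM10/OVA than in control and 0 lower (median 0.47), beside 3.17% and 2.73% of measured genes. They were Socs3, which restrains STAT3 signalling (3.26-fold, 2.93 to 3.64), Nfkbiz, an NF-kB cofactor needed for Lcn2 induction (2.72-fold, 2.36 to 3.13), and Bcl3 (2.65-fold, 2.20 to 3.20). None of the 10 was at least 2-fold lower or higher in either treated library than in PM10/OVA (medians -0.27 with the inhibitor and -0.10 with dexamethasone), beside 0.762% of measured genes lower and 0.636% higher with the inhibitor and 1.6% lower and 1.2% higher with dexamethasone. Nfkbiz was at 64.5 CPM in PM10/OVA/CPX, 43.7 in PM10/OVA/Dex, 43.7 in PM10/OVA, 40.8 in PM10 and 16.1 in control, highest with the inhibitor. Cebpd was at 103 CPM in PM10/OVA/CPX, 183 in PM10/OVA/Dex, 152 in PM10/OVA, 174 in PM10 and 102 in control, and Cebpb at 134, 181, 169, 168 and 99.6 CPM. Both C/EBP genes, whose recognition pattern is marked in the sequences above, were lower in PM10/OVA/CPX than in PM10/OVA, by 1.48-fold for Cebpd (1.39 to 1.59) and 1.26-fold for Cebpb (1.18 to 1.34), and slightly higher in PM10/OVA/Dex, by 1.20-fold (1.13 to 1.28) and 1.07-fold (1.01 to 1.14).

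**Figure D4:**
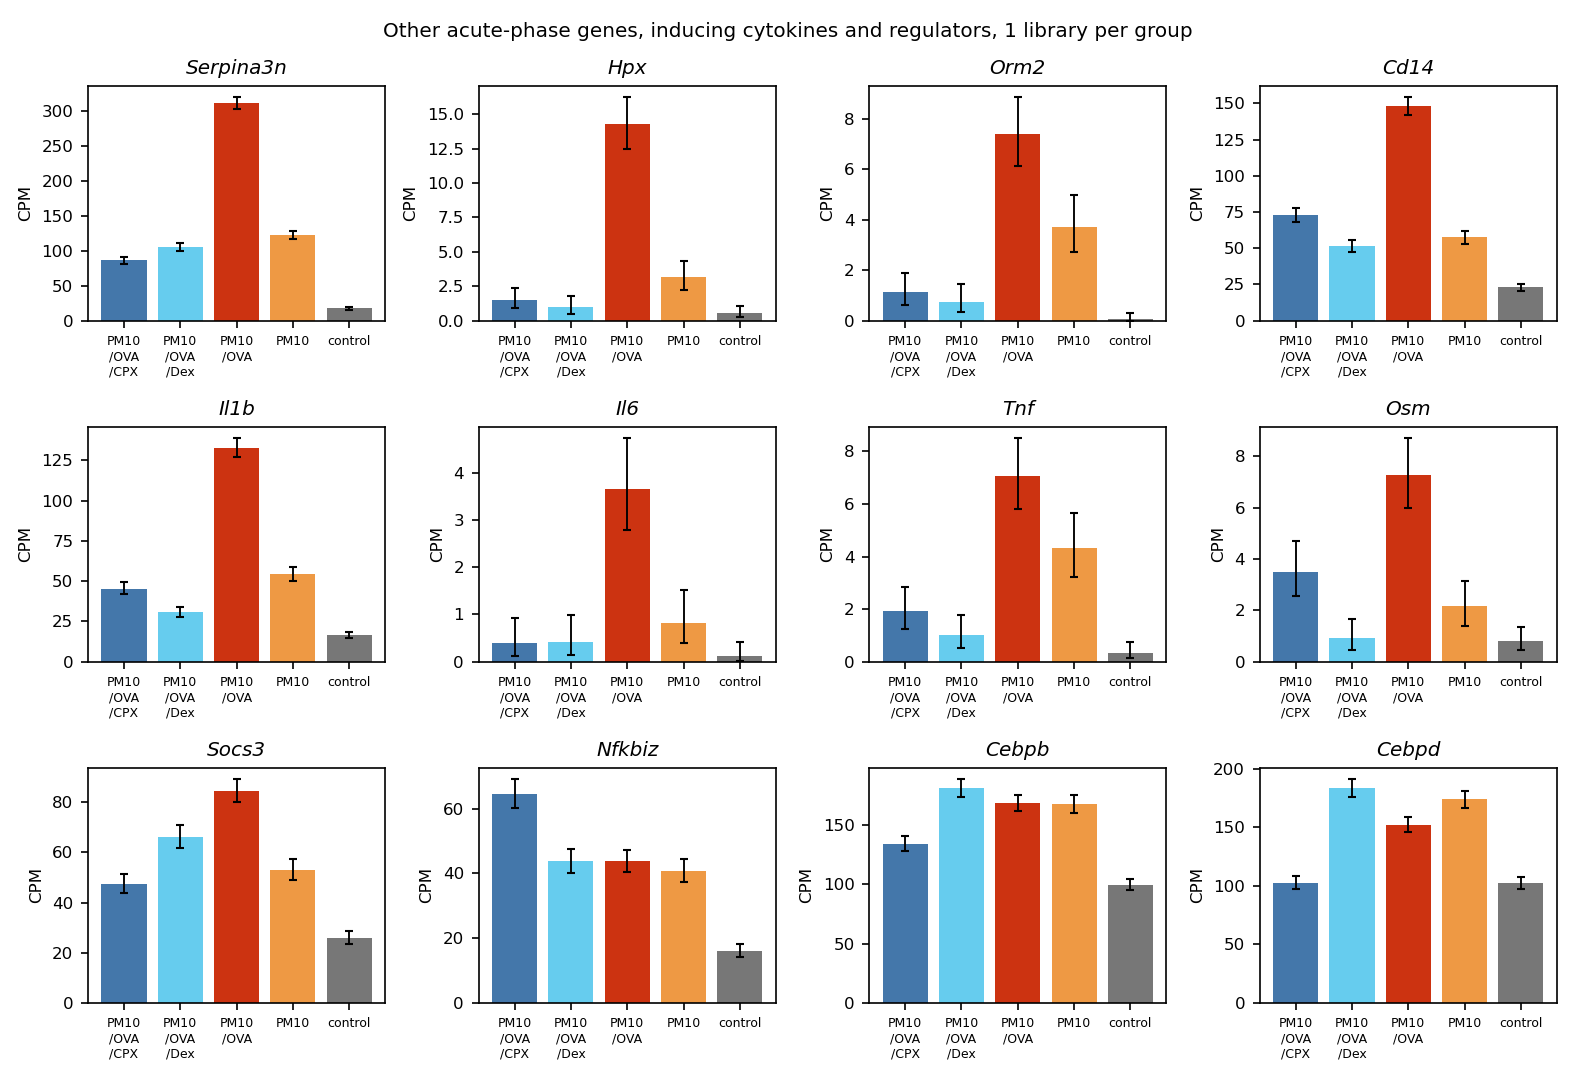
Level in CPM (vertical axis, from 0, a scale of its own per gene) of 12 other genes of the acute phase in the 5 libraries, as single-library bars with 95% counting intervals. Serpina3n, Hpx, Orm2, Cd14, Il1b, Il6, Tnf, Osm and Socs3 are highest in PM10/OVA, Nfkbiz in PM10/OVA/CPX at 64.5 CPM, and Cebpb and Cebpd in PM10/OVA/Dex at 181 and 183 CPM.

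All 21 receptors and partners of the 8 proteins were measured. Hpx and Cd14 are in this list and also in that of the other acute-phase secreted proteins. Both are past 2-fold in each comparison counted here, so the counts of these lists are not separate. In PM10/OVA 7 were at least 2-fold higher than in control and 0 lower (median 0.66), beside 3.17% and 2.73% of measured genes. Tlr2, a receptor that serum amyloid A can engage, was 3.31-fold (2.98 to 3.68), Fpr2, the formyl peptide receptor that serum amyloid A also binds, 3.24-fold (2.78 to 3.77) and Cd14 6.44-fold higher (5.79 to 7.18). In each treated library 3 of the 21 were at least 2-fold lower than in PM10/OVA and 0 higher (median -0.24 with the inhibitor and -0.23 with dexamethasone), beside 0.762% and 0.636% of measured genes with the inhibitor and 1.6% and 1.2% with dexamethasone. Cd163, the macrophage receptor for haptoglobin bound to haemoglobin, was 3.47-fold lower with the inhibitor (2.75 to 4.43) and 1.71-fold lower with dexamethasone (1.42 to 2.06). Tlr2 was 1.77-fold (1.61 to 1.95) and 2.53-fold lower (2.27 to 2.82) in the same order, and Lrp2, an endocytic receptor of Lcn2, 1.63-fold (1.48 to 1.80) and 1.92-fold (1.73 to 2.13). Fpr2 was at 63.3 CPM in PM10/OVA/CPX, 33.5 in PM10/OVA/Dex, 43.3 in PM10/OVA, 47.2 in PM10 and 13.4 in control, highest where the inhibitor was given.

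Likeness of pattern was measured as Pearson's r of log2(CPM + 1) over the 5 libraries, a description with few points that share these libraries. Among 374 genes with a range of at least 2 on that scale, those most like Saa3 were Slc11a1, a metal transporter of phagosomes (r = 0.998), C3ar1, the receptor of complement fragment C3a (0.989), Ms4a6d (0.988), Lilr4b (0.986), Slc7a11, the cystine transporter (0.985), Cxcl3, a neutrophil-attracting chemokine (0.983), Hal (0.980) and Msr1, a macrophage scavenger receptor (0.980). Those most like Lcn2 were Lilrb4a, an inhibitory receptor of myeloid cells (above 0.999), the chemokine Ccl9 (0.997), Ch25h (0.994), Lilr4b (0.994) and Cd300lf (0.992). For Hp, among 1626 genes with a range of at least 1, Cd163 (0.952), Pla1a (0.940), Cyp1b1 (0.931), Aldh1a2 (0.924) and the metal transporter Slc39a14 (0.915) came closest. Like Hp, Cd163 was lowest in PM10/OVA/CPX at 7.03 CPM, with 14.3 in PM10/OVA/Dex, 24.4 in PM10/OVA, 10.3 in PM10 and 12.8 in control.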

How the data were processed

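Per the labels' protocols, Trizol was used for extraction and 1.3 ug of RNA entered a strand-keeping NEBNext Ultra II library kit. Reads were aligned with TopHat to mm10, per the submitters' processing notes. The tool, annotation and strand setting of the counting were not stated there. The values the authors deposited are unnormalized whole-number counts by gene symbol. Counts were scaled to CPM with TMM factors (edgeR 4.0.16, R 4.3.3). Ratios of CPM carry an exact (Clopper-Pearson conditional) 95% interval (SciPy 1.17.1), and calls use log2(CPM + 1), 2-fold, among the 14305 genes averaging 1 CPM or more. A count of 0 was given a floor of 3 counts. Intervals and floors cover counting error only, and they may be too narrow even for that, since PCR reads are not independent molecules. No test was possible with 1 library per group. The ratio code was tested on simulated data. Gene models, transcripts and lengths are GENCODE M21 (GRCm38). Where lengths were compared across genes the exon union was used, and per-kb levels use the principal transcript, which was also aligned between paralogs (Biopython 1.88) in place of the protein comparison first planned. Other genes were named by rule: up to 4 with the largest absolute log2 ratio per list, fixed cytokines and regulators, and the genes of like pattern. Some genes outside the rule (Saa4, Apcs, Crp, Fgb, Il6st, Il1a, Ltf) were named after their values were seen. The members and lists were chosen with earlier results of these data known. Scaling by library totals or DESeq2 1.42.0 size factors, other pseudocounts, other minimums and, added after the data were seen, removal of the length trend in 20 bins were tried.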

Additional observations from a re-analysis of the deposited data

How the results depend on the processing

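No paired analysis was possible because each group has 1 library. Scaling by library totals or by DESeq2 size factors (from the 1.42.0 release) changed no call of a member in the 6 comparisons counted. The number of members at least 2-fold higher in PM10/OVA than in PM10, 2, was 1 with a pseudocount of 5, with a minimum mean of 5 CPM and with the length trend removed. Saa1 lost its 2-fold call in PM10 over control and in both treated libraries over PM10/OVA with a pseudocount of 5, and was left out by a minimum mean of 5 CPM. With a minimum mean of 5 CPM, the other acute-phase genes counted 7 higher in PM10/OVA than in control, 2 lower with the inhibitor and 3 lower with dexamethasone, and the cytokine list 2 higher, 1 lower and 2 lower, since fewer genes were tested. With a pseudocount of 5 the cytokine list had 1 member lower with the inhibitor and 3 lower with dexamethasone, and the other acute-phase genes 0 higher with dexamethasone. With a pseudocount of 0.25 the other acute-phase genes had 2 lower in PM10/OVA than in control and 2 higher with dexamethasone, and the cytokine list 1 lower and 1 higher. The trend removal gave 2 other acute-phase genes lower in PM10/OVA than in control, and without a filter the cytokine list had 1 gene higher with the inhibitor. The cause was not tested for these. Counts over all measured genes moved by more than 1.5 times with the pseudocount: with 5 they were 304 higher and 141 lower in PM10 over control (529 and 292 as reported), 54 and 78 in PM10/OVA over PM10 (99 and 182), 261 and 203 in PM10/OVA over control (454 and 390), 35 and 58 in PM10/OVA/CPX over PM10/OVA (91 and 109), 55 and 101 in PM10/OVA/Dex over PM10/OVA (172 and 229) and 30 and 56 in PM10/OVA/CPX over PM10/OVA/Dex (105 and 151). With 0.25 they were 173 and 308 in PM10/OVA over PM10, 177 and 182 in PM10/OVA/CPX over PM10/OVA, 224 and 275 in PM10/OVA/CPX over PM10/OVA/Dex, and 294 higher with dexamethasone. With a minimum mean of 5 CPM they were 146 lower in PM10 over control, 208 lower in PM10/OVA over control, and 50, 106 and 58 higher in the 3 comparisons of treated libraries in that order. Of the genes most like Lcn2, 3 of 5 were shared with a pseudocount of 5, and of those most like Hp, 2 of 5. Depth limits Saa2, Ptx3, Saa1 and Il6, which rest on few counts.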
